A study of Mactra quadrangularis with 2 samples.

Results

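The chitinase and chitin-binding unigenes described here are 3 of the 124752 unigenes measured in digestive glands of a clam, Mactra veneriformis in the series title and Mactra quadrangularis in the organism label. A unigene is a transcript contig built from the reads themselves, without a genome. The members are Unigene44672_All, named endochitinase, Unigene56517_All, named chitinase-3, and Unigene55931_All, named for peritrophin-48, and the ending shared by all identifiers is left off in places below. They were picked by identifier, on names that the authors' annotation gave them and with their values in the same comparison known, so their values are a description with no test. The BDE-47 group was clams kept for 3 days at a nominal 5 µg/L of BDE-47, a brominated flame retardant, in water with DMSO at 0.05% by volume. The control group was clams kept in water with the same share of DMSO and no BDE-47, so the solvent was common to both. By the series text each group had 3 replicates of 30 clams, and the glands of 30 clams were pooled for RNA. The tables hold 1 library per group, no source used here says how the replicates went into it, and no difference below has a replicate check.

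Chitin is a polymer of N-acetylglucosamine. Chitin synthases build it, chitinases cleave the chain, and beta-hexosaminidases take off the end sugars of the pieces. Peritrophins are proteins that bind chitin in the lining of the insect gut. In molluscs chitin is also part of the organic framework of the shell, and chitinases are known both from digestion and from shell-forming tissue.

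The BDE-47 library held 15.9 M counted fragments and the control library 15.6 M, and a fragment was counted on 121628 unigenes in BDE-47 and on 119178 in the control. Of the list of digestive enzymes, a cathepsin L-like protease (CL2966.Contig2) had the highest level in both libraries, at 195 FPKM in BDE-47 and 391 FPKM in the control, where FPKM is the fragment count divided by the unigene length and by the library total. Protein names are those of the nearest database entry. They were present for 4337 of the 17625 unigenes that the authors called and for none outside their calls. Every named unigene below therefore had to differ between the libraries, and unigenes of the same families that did not differ are not seen.

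The evidence for the names was unequal. Unigene56517, 3156 bases long, matched chitinase-3 of the freshwater mussel Hyriopsis cumingii with an alignment score of 714.1. Its Swiss-Prot match was acidic mammalian chitinase (score 438), and its COG, KEGG and gene ontology terms also named chitinase or chitin metabolism. Unigene44672, 1340 bases long, matched an endochitinase of the oyster Crassostrea gigas with a score of 232.3. It had no Swiss-Prot match, and its KEGG match was a valyl-tRNA synthetase at a score of 54.7, so its name rests on 1 database. Unigene55931, 2063 bases long, had the weakest match. Its Nr match was an unnamed Drosophila mojavensis gene (score 58.2), and peritrophin-48 of the fly Chrysomya bezziana was its Swiss-Prot match (score 56.6). Of the 3 names, chitinase was the 1 that Nr, Swiss-Prot, COG, KEGG and gene ontology all gave. All 3 were long for this assembly, at the 86.7, 93.1 and 97.2 percentiles of unigene length for Unigene44672, Unigene55931 and Unigene56517, where the median unigene had 395 bases.

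Endochitinase and chitinase-3, named for enzymes that cut chitin, were both near the limit of detection in the control library and well covered in the BDE-47 library. Unigene44672_All had 664 fragments in BDE-47, against 3 fragments in the control. Per length this was 31.1 FPKM in BDE-47 (exact 95% Poisson interval 28.7 to 33.5), against 0.143 FPKM in the control (0.0296 to 0.419). The fold over library totals was 217 (exact 95% conditional binomial interval 73.8 to 1054). All intervals here cover counting error only, since PCR copies were not told apart from separate molecules and clams were pooled.

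Unigene56517_All had 369 fragments in BDE-47, against 3 fragments in the control. Its level was 7.33 FPKM in BDE-47 (6.60 to 8.12) and 0.0609 FPKM in the control (0.0126 to 0.178). The fold was 120 (40.9 to 587). The control value is 1 fragment per 1052 bases of a long unigene, and a count of 3 has an interval of 0.619 to 8.77 fragments.

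The unigene named for peritrophin-48, a binding protein, had the highest BDE-47 fragment count of the 3. Unigene55931_All had 760 fragments in BDE-47, against 3 fragments in the control. Its level was 23.1 FPKM in BDE-47 (21.5 to 24.8) and 0.0931 FPKM in the control (0.0192 to 0.272), and its fold was 248 (84.6 to 1206). By the authors' deposited table the log2 ratio of BDE-47 over control was 7.95 for Unigene55931, 7.76 for Unigene44672 and 6.91 for Unigene56517.

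The 3 unigenes could be ordered by level in BDE-47 but not in the control. In the BDE-47 library Unigene44672 was at 1.35 times the FPKM of Unigene55931 (1.21 to 1.49), which in turn was at 3.15 times that of Unigene56517 (2.78 to 3.58). The control intervals of the 3 overlapped, and so did the intervals of their folds. By FPKM the 3 stood at the 98.0, 97.0 and 85.4 percentiles of all unigenes in BDE-47, for Unigene44672, Unigene55931 and Unigene56517, and at the 5.30, 4.86 and 4.63 percentiles in the control. Summed, they had 1793 fragments in BDE-47 and 9 in the control, a fold of 195 (103 to 427).

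A unigene is counted below as higher or lower when 3 things held: its log2 ratio, taken on FPKM plus 0.1, was 1 or more in size, both libraries together gave it at least 20 fragments, and 1 lay outside the interval of its ratio. By this rule all 3 members were higher. So were 11092 of the 89164 unigenes with at least 20 fragments (12.4%), while 14421 were lower (16.2%). With median-of-ratios scaling in place of library totals, 12636 were higher and 12472 lower. The members' own count says nothing further because they were chosen on this comparison. Their log2 ratios were 7.00 for Unigene44672, 6.91 for Unigene55931 and 5.53 for Unigene56517. The median over the 89164 unigenes was -0.11. In the order of described unigenes by log2 ratio, the highest first, Unigene44672 was at place 27, Unigene55931 at place 31 and Unigene56517 at place 96 of 4337.

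**Figure D1:**
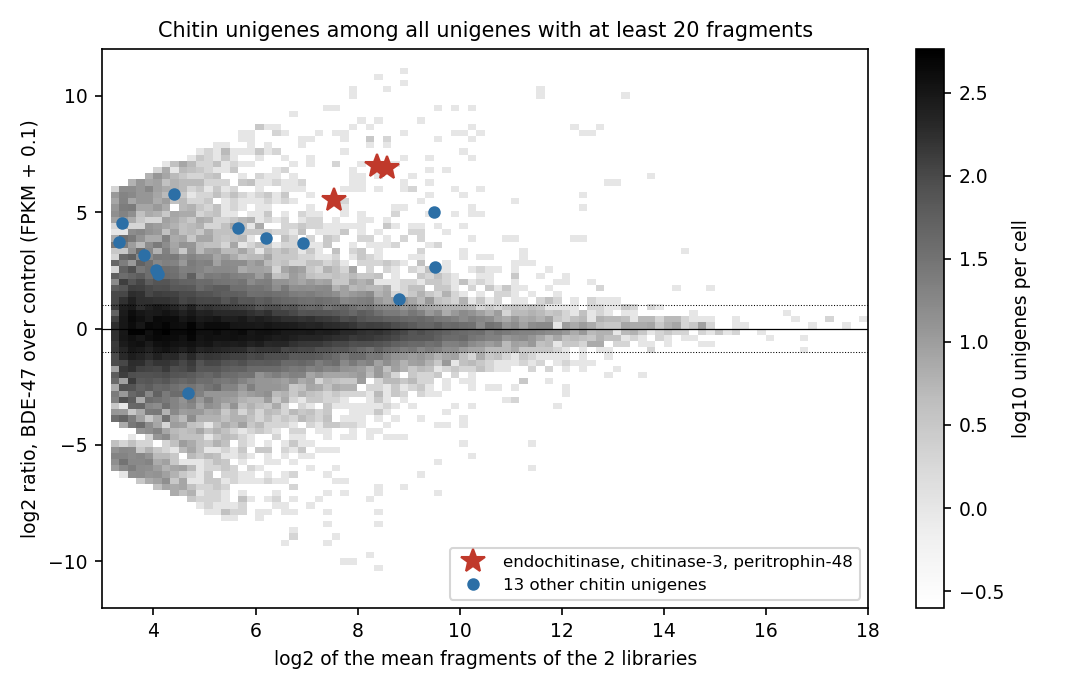
Log2 ratio of BDE-47 over control (FPKM plus 0.1) against the log2 of the mean fragments of both libraries, for the 89164 unigenes with at least 20 fragments (grey, darker where more unigenes fall). The stars, endochitinase, chitinase-3 and peritrophin-48, lie between 5.53 and 7.00, and of the 13 other chitin unigenes (blue) 12 lie above the dotted line at 1 and 1 lies below the line at -1.

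Because all 3 members had the same control count, they can be set among the 3521 unigenes with 3 control fragments. The median of these had 8 fragments in BDE-47, with quartiles of 6 and 12. Only 21 reached 100 fragments, of which 10 were described. Just 5 had at least the 369 fragments of Unigene56517, and the 3 members were among them, which restates the values they were picked on. Beside them were CL717.Contig3, a proline-rich protein with 5925 fragments, and Unigene49441, with the Nr name NOTCH2 protein and 1881 fragments. A further chitinase-3 contig, CL487.Contig2, was among the 10 described ones, with 144 fragments.

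**Figure D2:**
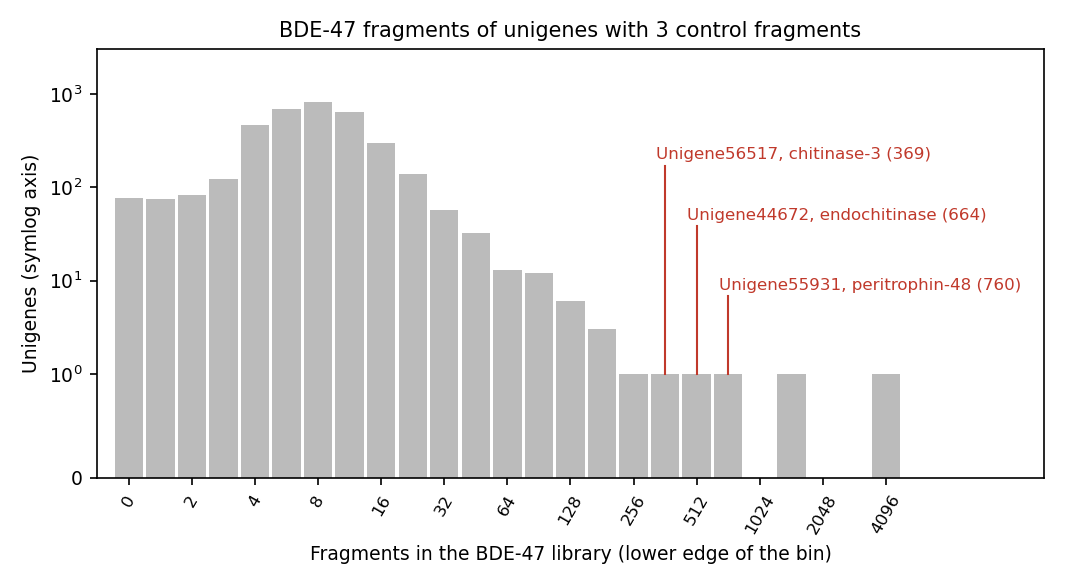
Fragments in the BDE-47 library for the 3521 unigenes that had 3 fragments in the control, in bins whose lower edges are on the horizontal axis; the vertical axis counts unigenes and is linear below 1 and logarithmic above. The bulk lies around 8 fragments, and the members lie at 369, 664 and 760 fragments.

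The other unigenes of chitin metabolism were mostly higher in BDE-47 as well. Words for chitin enzymes and chitin-binding proteins matched 16 described unigenes, the 3 members included. By the rule of size 15 of the 16 were higher and 1 was lower. However, 10 of the 16 had 3 or fewer control fragments, as did 354 of the 4337 described unigenes. Such unigenes reach 20 fragments only through BDE-47, so the rule could not count them as lower. The share among the 4174 described unigenes that had at least 20 fragments was 35.2% for higher and 62.4% for lower. The median log2 ratio was 3.80 over the 16 and 3.69 over the 13 that are not members, against -1.19 over all described unigenes. Of those 13, 12 were higher and 1 lower, and 7 had 3 or fewer control fragments.

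Among the hydrolases, 9 unigenes were named chitinases and all 9 were higher, and they fell into those well covered in both libraries and those close to 0 in the control. The second kind made up 7 of the 9, of which 6 had 3 or fewer control fragments and so could not be counted as lower. CL10676.Contig1, a putative chitinase 3, had 1266 fragments in BDE-47 and 193 in the control, a fold of 6.42 (5.52 to 7.51). Unigene44, named acidic mammalian chitinase, had 637 fragments in BDE-47 and 255 in the control, a fold of 2.45 (2.11 to 2.84). These were the smallest folds of the 9.

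The remaining chitinases had 15 or fewer control fragments. Unigene56516, another putative chitinase 3, had 230 fragments in BDE-47 and 15 in the control, a fold of 15.0 (8.91 to 27.3). Unigene41759, named chitinase-3, had 100 fragments in BDE-47 and 1 in the control, a ratio of 97.9 (17.2 to 3906). The contigs of cluster CL487, also named chitinase-3, had 175 fragments in BDE-47 and 5 in the control when summed, a fold of 34.3 (14.4 to 107). Unigene50425, a putative chitinase 3 of 293 bases, had 19 fragments in BDE-47 and 1 in the control, a ratio of 18.6 (2.96 to 773). Of these, CL487, Unigene50425 and Unigene41759 had intervals that overlapped those of both member chitinases, and Unigene56516 lay below them.

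Several of these were alike in their match. Unigene56517, Unigene41759 and both CL487 contigs had the same Nr entry as their best match, and Unigene41759 and CL487.Contig2 had the same score to it (365.9). Unigene56516, Unigene50425 and CL10676.Contig1 also shared 1 entry. Whether contigs with a shared match come from 1 gene was not tested, and counts could be split between them, so single values of these unigenes are less certain than their sum.

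**Figure D3:**
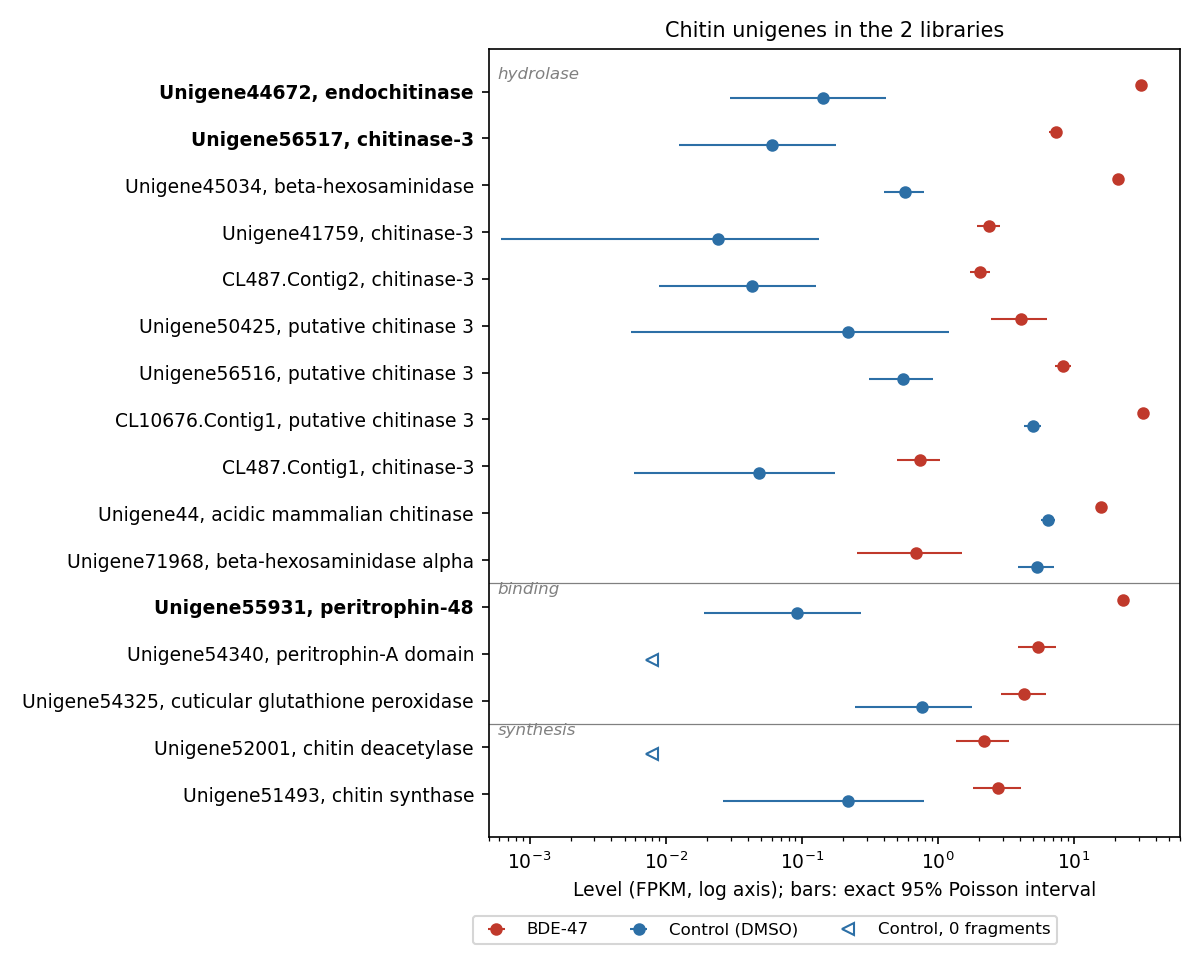
Level in FPKM (log axis) of the 16 unigenes matched by words for chitin enzymes and binding proteins, in BDE-47 (red) and control (blue), with exact 95% Poisson intervals, which are narrower than the point where none shows. An open triangle marks 0 fragments in the control and has no place on the scale, and names in bold are endochitinase, chitinase-3 and peritrophin-48. In 15 unigenes the BDE-47 point lies to the right, and in Unigene71968 it lies to the left.

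Summed over the 9 chitinases, there were 3460 fragments in BDE-47 and 476 in the control, a fold of 7.12 (6.47 to 7.85). Unigene44672 and Unigene56517 gave 29.9% of these fragments in BDE-47 and 1.26% in the control, which restates the values they were picked on. Without both, the other 7 had 2427 fragments in BDE-47 and 470 in the control, a fold of 5.06 (4.58 to 5.59). CL10676.Contig1 alone gave 36.6% of the chitinase fragments in BDE-47 and 40.5% in the control, and Unigene44 gave 18.4% in BDE-47 and 53.6% in the control.

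**Figure D4:**
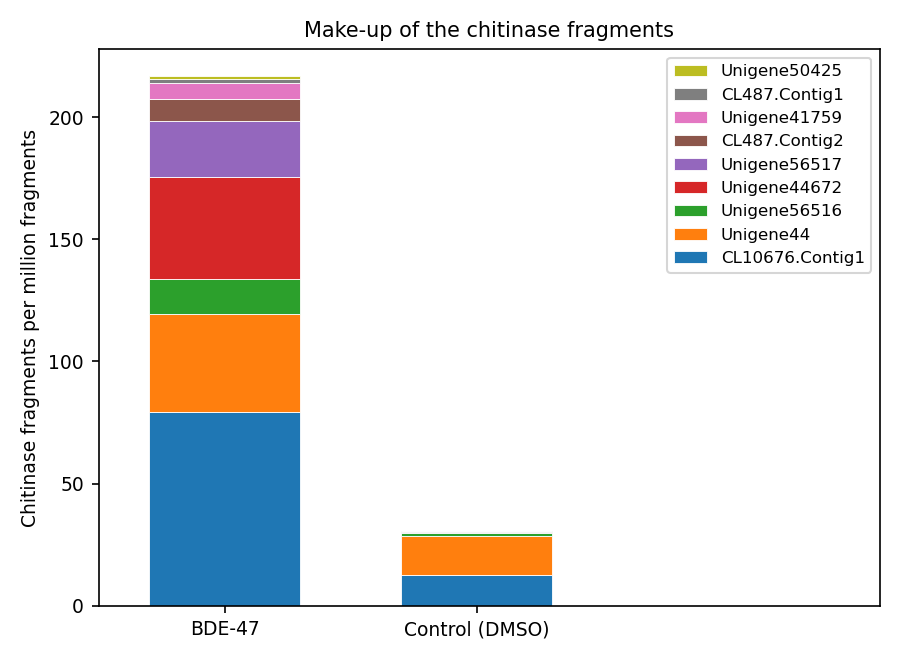
Fragments of the 9 chitinase unigenes per 1000000 counted fragments, stacked by unigene, in BDE-47 (left) and control (right). The largest pieces are CL10676.Contig1 (36.6% of the bar) in BDE-47 and Unigene44 (53.6%) in the control, and the member chitinases Unigene44672 (red) and Unigene56517 (purple) together make up 29.9% in BDE-47 and 1.26% in the control.

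The hexosaminidases went in opposite directions. Unigene45034, with the Nr name beta-hexosaminidase, had 1406 fragments in BDE-47 and 37 in the control, a fold of 37.2 (26.9 to 53.1). Its KEGG match (score 149) and COG description also named hexosaminidase. Its Swiss-Prot match (score 82) was a spicule matrix protein of a sea urchin, that is, a protein of a mineral skeleton. Unigene71968, named for the alpha subunit of beta-hexosaminidase, had 6 fragments in BDE-47 and 45 in the control, a ratio of 0.131 (0.0455 to 0.307). It was the 1 lower unigene of the list.

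Of the chitin-binding class, the unigenes beside peritrophin-48 were short and thinly covered. Unigene54340, named for a chitin-binding peritrophin-A domain, had 42 fragments in BDE-47 and 0 in the control. Set against a floor of 3 control fragments, this was at least 13.7-fold higher. Unigene54325 entered the list through the Swiss-Prot name cuticular glutathione peroxidase. It is named selenium-dependent glutathione peroxidase, an antioxidant enzyme, in Nr. It had 29 fragments in BDE-47 and 5 in the control, a fold of 5.68 (2.17 to 18.8).

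Unigenes for the making and modification of chitin were likewise higher at low counts. Unigene51493, a chitin synthase that best matched the pen shell Atrina rigida, had 26 fragments in BDE-47 and 2 in the control, a ratio of 12.7 (3.19 to 111). Unigene52001, a chitin deacetylase, which removes acetyl groups from chitin, had 21 fragments in BDE-47 and 0 in the control. Against the same floor this was at least 6.85-fold higher. Unigene55390, chosen after its values were seen, had the Nr name myosin-IIIB and the KEGG term chitin synthase. Mollusc chitin synthases carry a myosin domain. It had 76 fragments in BDE-47 and 3 in the control, a ratio of 24.8 (8.17 to 123).

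The unigenes nearest to each member in log2(FPKM plus 0.1) over the 2 libraries were taken among the described unigenes other than the 3 themselves. For Unigene44672 and Unigene55931 the nearest 5 were the same unigenes, in a different order. Between Unigene44672 and Unigene55931 the distance was 0.541, less than from Unigene44672 to any of the 5 (0.654 to 0.939) and more than from Unigene55931 to any of them (0.223 to 0.511). These were CL15407.Contig1 and CL16754.Contig2, both unnamed proteins of Crassostrea gigas, Unigene54137, which matched the Caenorhabditis elegans protein ZC84.1, and both contigs of CL7301, whose Swiss-Prot match was ubiquitin-60S ribosomal protein L40. Their levels were between 19.2 and 24.2 FPKM in BDE-47 and between 0.0544 and 0.162 FPKM in the control. For Unigene56517 the nearest was CL1885.Contig1, a DBH-like monooxygenase, at 8.72 FPKM in BDE-47 and 0.0398 FPKM in the control. It was followed by Unigene43102 (Swiss-Prot name tomoregulin-2), Unigene45253 (integrin beta), Unigene56392 (GTPase IMAP family member 8-like) and Unigene55901, unnamed in Nr. The distances of these 5 were between 0.319 and 0.564, below the 1.66 between Unigene56517 and Unigene55931. With 2 libraries, likeness rests on 2 values per unigene. The neighbours had between 1 and 4 control fragments and the members 3, so the control part of each distance rests on a few fragments.

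Lists of shell and digestive proteins, which hold none of the chitin unigenes, were read beside them. Of 34 unigenes named for shell matrix and mantle proteins, 27 were higher, 6 lower and 1 was not past the rule, with a median log2 ratio of 4.49. Their fragments summed to 83175 in BDE-47 and 10184 in the control, and 6 of the 34 were at 0 in the control. With 3 or fewer control fragments, 9 of the 34 could not be counted as lower. The shares were 79.4% higher and 17.6% lower, against 33.9% and 60.1% of all 4337 described unigenes. Words of the list also matched a pair of silk proteins, a mantle muscle myosin and several carbonic anhydrases, whose names are not particular to shell. Carbonic anhydrases CL3187.Contig2 (1158 fragments in BDE-47, 2690 in the control) and Unigene27262 (1168 in BDE-47, 2416 in the control) were lower and held much of the control sum. These 34 served as the markers of shell-forming mantle here, though not all are particular to it. Most of them were higher, as most chitin unigenes were, and their part in the result was not tested. At the upper end, named by its Swiss-Prot match, was an amelogenin-like unigene (CL7923.Contig1, 5909 fragments in BDE-47 and 2 in the control). That match was weak, at a score of 56.2. Named in the same way were a PIF-like unigene (Unigene56099, 18847 in BDE-47 and 16 in the control) and a shematrin-like one (Unigene55453, 505 in BDE-47 and 0 in the control). The Nr name of Unigene55453 was a secretory eggshell protein. A perlucin-like unigene (CL12208.Contig3) was at the lower end, with 23 fragments in BDE-47 and 305 in the control, with Unigene10783, named insoluble matrix shell protein 6 (47 in BDE-47, 124 in the control), and another PIF-like contig (CL19581.Contig5, 545 in BDE-47, 1298 in the control). In bulk RNA of pooled glands, more cells of a type and more RNA per cell cannot be told apart.

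Of 53 unigenes matched by words for other digestive enzymes, 28 were higher, 19 lower and 6 not past the rule, with a median log2 ratio of 1.50. The shares were 52.8% higher and 35.8% lower, against 33.9% and 60.1% of all 4337 described unigenes. With 3 or fewer control fragments, 13 of the 53 could not be counted as lower. The words also matched names that mark no digestive enzyme, among them neurotrypsin and a phospholipase receptor. Their fragments summed to 18103 in BDE-47 and 24829 in the control, a ratio of 0.714 (0.700 to 0.728). The cathepsin L-like CL2966.Contig2 carried that direction, with 9135 fragments in BDE-47 and 17963 in the control. Without it the other 52 summed to 8968 in BDE-47 and 6866 in the control, a ratio of 1.28 (1.24 to 1.32). That receptor, Unigene57109, gave 2472 of these fragments in BDE-47 and 811 in the control. The ratio of 1.28 therefore does not rest on digestive enzymes alone. A trypsin (Unigene55748), whose best match was the copepod Lepeophtheirus salmonis, had 198 fragments in BDE-47 and 0 in the control. Among those not matched to copepods, an alpha-amylase (Unigene55312) had 120 fragments in BDE-47 and 0 in the control, and another trypsin (Unigene22025) had 182 in BDE-47 and 18 in the control. At the lower end a serine protease-like contig (CL3006.Contig4) had 0 fragments in BDE-47 and 210 in the control, an alpha-L-fucosidase (CL453.Contig2) had 49 in BDE-47 and 154 in the control, and an aminopeptidase (Unigene10208) had 51 in BDE-47 and 152 in the control.

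RNA matching small crustaceans was also seen mostly in the BDE-47 library. Of 26 described unigenes whose best Nr match was a copepod, 16 were higher, 2 lower and 8 not past the rule. Of the 26, 23 were at 0 in the control, so they could not be counted as lower. Among all 4337 described unigenes 33.9% were higher, and among those with at least 20 fragments, as 18 of the 26 had, 35.2%. The chitin and shell lists held none of the 26 and the digestive enzyme list held 2, the trypsin Unigene55748 among them. Their fragments summed to 2371 in BDE-47 and 102 in the control. Among them 10 vitellogenins, yolk proteins of egg-laying animals, had 1395 fragments in BDE-47 and 0 in the control. Arthropod matches of all kinds numbered 269, with 103 higher, 136 lower and 41 at 0 in the control. Unigene55931 is one of these 269 by its fly match, whereas Unigene44672 and Unigene56517 best matched bivalves. Arthropods also make chitin and peritrophins, and the part of such RNA in the level of Unigene55931 was not tested.

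Markers of other cells went both ways or mainly down. Of all 4337 described unigenes 60.1% were lower, and of those with at least 20 fragments 62.4%. A majority lower is therefore not in itself particular to these markers. Over all unigenes of each list, the share lower was 66.7% for muscle, 87.5% for ciliary and sperm, 53.7% for blood cell and 31.8% for egg unigenes. Of 18 muscle unigenes 5 were higher and 12 lower (2325 fragments in BDE-47, 4537 in the control), with 2 at 0 in BDE-47 and 1 at 0 in the control. Of these 18, 4 were named non-muscle myosin and held 1288 of the fragments in BDE-47 and 3018 in the control. The other 14 held 1037 in BDE-47 and 1519 in the control, with 4 higher and 9 lower. They still included names that do not mark muscle, among them a myosin heavy chain IB (Unigene58619, higher) and a Dictyostelium myosin (Unigene32434, lower). Of 32 ciliary and sperm unigenes 4 were higher and 28 lower (3461 in BDE-47, 6102 in the control), with 1 at 0 in the control. These included names that do not mark cilia or sperm, namely a pair of cytoplasmic dynein light chains, a flagelliform silk protein, a pair of dynein-related ATPases best matched to Plasmodium falciparum and a zona pellucida protein also listed as an egg marker. Without those 6, 2 were higher and 24 lower (2149 in BDE-47, 4309 in the control). Of 41 blood cell unigenes 17 were higher and 22 lower (7707 in BDE-47, 6213 in the control), with 2 at 0 in the control. The direction of that sum rested on CL3971.Contig1, a C1q-like protein, without which it was 4187 in BDE-47 and 5968 in the control. The blood cell words also matched names that do not mark blood cells. Among these were caprin-2 (Unigene60366, higher) and a neurotrypsin-like unigene (CL1494.Contig2, lower) also counted with the digestive enzymes. Of 22 egg unigenes, the copepod vitellogenins included, 12 were higher and 7 lower (4245 in BDE-47, 7581 in the control), with 10 at 0 in the control. Those 10 were the copepod vitellogenins, 7 of them higher, and they could not be counted as lower. The low share of 31.8% lower for egg unigenes therefore does not describe clam egg markers alone. The words for algal food matched a single unigene, CL18190.Contig3, by its Nr name chlorophyllide a oxygenase. It is no algal marker, since its best match was an oyster entry and its Swiss-Prot name was cholesterol desaturase, so algal RNA was not measured here.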

How the data were processed

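Per the labels' protocols, mRNA was taken on poly-T beads and read by Illumina sequencing. The authors deposited raw fragment counts per unigene, per the file headers, and the header totals equal the sums of the counts. The deposited FPKM values could be computed again from these counts, apart from rounding. Their deposited log2 values are ratios of FPKM in which 0 was replaced by 0.001. The p-value and FDR per unigene that the authors deposited come from an unnamed test, and neither is used as evidence. The deposited table of called unigenes (FDR at most 0.001, absolute log2 ratio at least 1) gives an alignment score for each database match. Per the submitters' processing notes CASAVA 1.5 was used. Which tools assembled, aligned and counted is not given in the sources used.

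With 1 library per group no test between conditions was possible and none was run. Folds, intervals (95%, exact) and calls were computed from the counts with Python 3.11.15 and scipy 1.17.1, and TMM factors with edgeR 4.0.16. The rule of size was tried on simulated counts with counting error only. Its simulated folds were set in unigenes with at least 100 expected control fragments. It therefore did not cover unigenes with 3 control fragments, such as the members, or differences between clams. Other scalings, pseudocounts, minimum counts, fold thresholds and name sources were tried. Members and word lists were chosen with earlier results of these data known. Named are the 3 members, the 5 nearest described unigenes of each, the chitin list by class, and the 3 highest and 3 lowest of the shell matrix and digestive enzyme lists with at least 100 fragments and 1 per description. Of 11 hydrolases, more than the 10 below which a class is named whole, all are named, with the CL487 contigs summed.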

Additional observations from a re-analysis of the deposited data

How the results depend on the processing

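No paired analysis was possible because each group has 1 library, and for the same reason no replicate could be left out. Of 103 alternatives 81 were labelled the same, 20 moved and 2 reversed. The label of the same was loose and let counts change in size. With the authors' calls 7597 unigenes were higher in place of 11092, and with Swiss-Prot names only 10 chitin unigenes in place of 15. Median-of-ratios scaling, also labelled the same, gave 12636 higher and 12472 lower in place of 11092 and 14421, which turned the balance round. The reversals, chosen after seeing the data, each left out 1 unigene of a list's sum: without CL2966.Contig2 the log2 ratio of the summed digestive enzymes was 0.35 in place of -0.49, and without CL3971.Contig1 that of the summed blood cell markers was -0.54 in place of 0.28. With a pseudocount of 1 FPKM the members' log2 ratios were 4.81 (Unigene44672), 2.97 (Unigene56517) and 4.46 (Unigene55931), since their control levels lie far below 1 FPKM. Median-of-ratios scaling moved the median log2 ratio of all unigenes by 0.11 and TMM by 0.06, and all 3 members stayed within their counting intervals under both. Over all unigenes, 17626 were higher with no minimum of fragments, 2789 higher and 3988 lower with a minimum of 100, and 4381 and 5164 at an absolute log2 ratio of at least 2. Of the chitin list, 9 were higher and 0 lower with a minimum of 100 fragments, and 0 were lower with Swiss-Prot names only. Of the shell matrix list, 1 was lower at a log2 ratio of at least 2, 3 with Nr names only and 3 with contigs summed. Of the digestive enzyme list, 15 were higher with a minimum of 100 fragments, 18 at a log2 ratio of at least 2 and 18 with Nr names only, and 5, 12 and 12 were lower at a log2 ratio of at least 2, with Nr names only and with contigs summed. Leaving out the 3 members, leaving out the glutathione peroxidase and adding KEGG terms were chosen after seeing the data and gave 12, 14 and 16 higher chitin unigenes and 1 lower each. Depth limits the control side: at 3 fragments a member's fold is known to within its counting interval only.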
